A study of Mus musculus with 2 samples.

Results

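The genes Mki67, Top2a, Pcna, Hmgb2, Lmnb1 and Stmn1 are widely used to mark dividing cells. They were taken by name from the authors' deposited table, where 8 probes of 55681 carry one of the 6 symbols, out of 24288 gene symbols on the array. Mki67 and Stmn1 had 2 probes each and the other genes had 1. The mice were C57BL/6J, 8 weeks old, and had either lost 60% of the pancreas by surgery (pancreatectomy) or been sham operated. Islets were isolated 3 days later, and their total RNA was hybridised to one-colour Cy3 arrays. Each group has 4 arrays, and all 8 lie on 1 slide, with sham in slide columns 1 and 2 and pancreatectomy in columns 3 and 4, so that column and group cannot be told apart. Whether each array holds RNA of different mice is not stated in the labels, so p-values measure the spread between these arrays only, which may be technical.

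In adult islets few beta cells divide, and loss of pancreatic tissue is a classical stimulus for islet cell replication. The 6 genes act at different steps of division. Pcna encodes the sliding clamp that holds DNA polymerases on the template during replication. Top2a encodes the topoisomerase that disentangles sister chromatids, Mki67 encodes the Ki-67 protein that coats mitotic chromosomes, and Hmgb2 encodes a chromatin protein that bends DNA. Lmnb1 encodes lamin B1 of the nuclear lamina, and Stmn1 encodes stathmin, which destabilises microtubules until it is phosphorylated in mitosis.

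The promoters are shown because the 6 genes moved in the same direction, and genes of late division are known to carry CHR elements beside CCAAT boxes. RefSeq promoter windows on GRCm38.p6, from 250 bases before to 50 bases after the gene start, were used for 4 of the 6 genes. They lie at chr7:135716330-135716629 (minus strand), chr11:99024140-99024439 (minus strand), chr2:132253131-132253430 (minus strand) and chr8:57511593-57511892 (plus strand). Capitals mark matches on either strand. The letters searched were CCAAT for the NF-Y box, and for the CHR element TTTGAA as well as the palindrome TTCGAA, counted once per site. For the E2F core they were TTCCCGC together with TTCGCGC and besides these TTGCCGC together with TTGGCGC. No match overlapped a match of another motif.
Mki67: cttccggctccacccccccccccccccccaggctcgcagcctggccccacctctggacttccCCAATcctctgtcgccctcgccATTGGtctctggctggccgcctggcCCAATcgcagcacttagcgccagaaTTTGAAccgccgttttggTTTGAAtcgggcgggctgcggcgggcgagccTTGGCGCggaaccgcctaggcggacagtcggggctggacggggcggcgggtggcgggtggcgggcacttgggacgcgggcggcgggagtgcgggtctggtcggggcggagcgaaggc
Top2a: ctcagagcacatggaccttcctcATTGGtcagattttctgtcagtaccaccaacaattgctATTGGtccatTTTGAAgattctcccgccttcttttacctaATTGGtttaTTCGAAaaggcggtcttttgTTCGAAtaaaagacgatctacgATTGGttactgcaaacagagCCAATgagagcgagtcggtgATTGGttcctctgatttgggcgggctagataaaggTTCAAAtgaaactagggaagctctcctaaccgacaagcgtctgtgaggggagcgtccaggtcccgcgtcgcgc
Hmgb2: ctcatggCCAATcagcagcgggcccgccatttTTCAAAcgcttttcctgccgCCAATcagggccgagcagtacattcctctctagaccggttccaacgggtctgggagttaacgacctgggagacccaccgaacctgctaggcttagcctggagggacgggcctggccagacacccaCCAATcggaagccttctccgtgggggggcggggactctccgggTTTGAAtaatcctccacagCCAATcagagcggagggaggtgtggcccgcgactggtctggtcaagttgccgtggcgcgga
Pcna: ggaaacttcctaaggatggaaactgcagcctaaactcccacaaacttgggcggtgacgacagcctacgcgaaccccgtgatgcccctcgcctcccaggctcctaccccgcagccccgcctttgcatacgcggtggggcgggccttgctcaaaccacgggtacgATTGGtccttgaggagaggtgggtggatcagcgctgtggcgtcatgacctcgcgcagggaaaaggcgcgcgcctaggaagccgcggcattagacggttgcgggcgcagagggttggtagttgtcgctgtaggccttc

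Mki67 held 3 CCAAT matches, 2 CHR matches and 1 E2F match, TTGGCGC, which began 67 bases before the start. Top2a held 6 CCAAT and 4 CHR matches, and Hmgb2 held 4 CCAAT and 2 CHR matches, with no E2F match in either. Pcna held 1 CCAAT match, no CHR match and no E2F match. Thus CCAAT matched in 4 of 4 windows and CHR in 3 of 4, against 37.4% and 19.2% of all 32851 promoter windows, and 7.52% of those windows held both. E2F letters matched in 1 of 4 windows against 9.57% of all. The search covered all 6 genes by name, but any window on chromosome 18, where Lmnb1 lies, was then left out of these shares. A Lmnb1 window would have lowered them, as no match was listed for that gene. The matches describe letters and not binding.

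Of 30858 features tested, where a feature is a gene by its brightest probe or a probe without a symbol, limma called 0.544% higher and 0.0843% lower after pancreatectomy at a Benjamini-Hochberg adjusted p of 0.05. Of the 6 genes, 5 were called higher and Pcna was not. On all 6 genes the pancreatectomy arrays lay above every sham array, which held for 2.99% of all features, while 5.3% had every pancreatectomy array below every sham array. The median change of the 6 was 2.03 on the log2 scale, against -0.04 over all features. In whole islets, more dividing cells and more of each transcript per cell cannot be told apart. Without sham replicate 2 or without pancreatectomy replicate 4, 2 of the 6 remained called (Mki67 and Hmgb2), and with no scaling between arrays 1 did (Mki67).

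Levels below are log2 signals after shifting each array to a common 75th percentile. They can be compared between arrays for 1 probe but not between probes. The probe signal is listed for replicates 1 to 4 of each group in that order. Replicate numbers were given here by slide position and pair no arrays between groups.

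**Figure D1:**
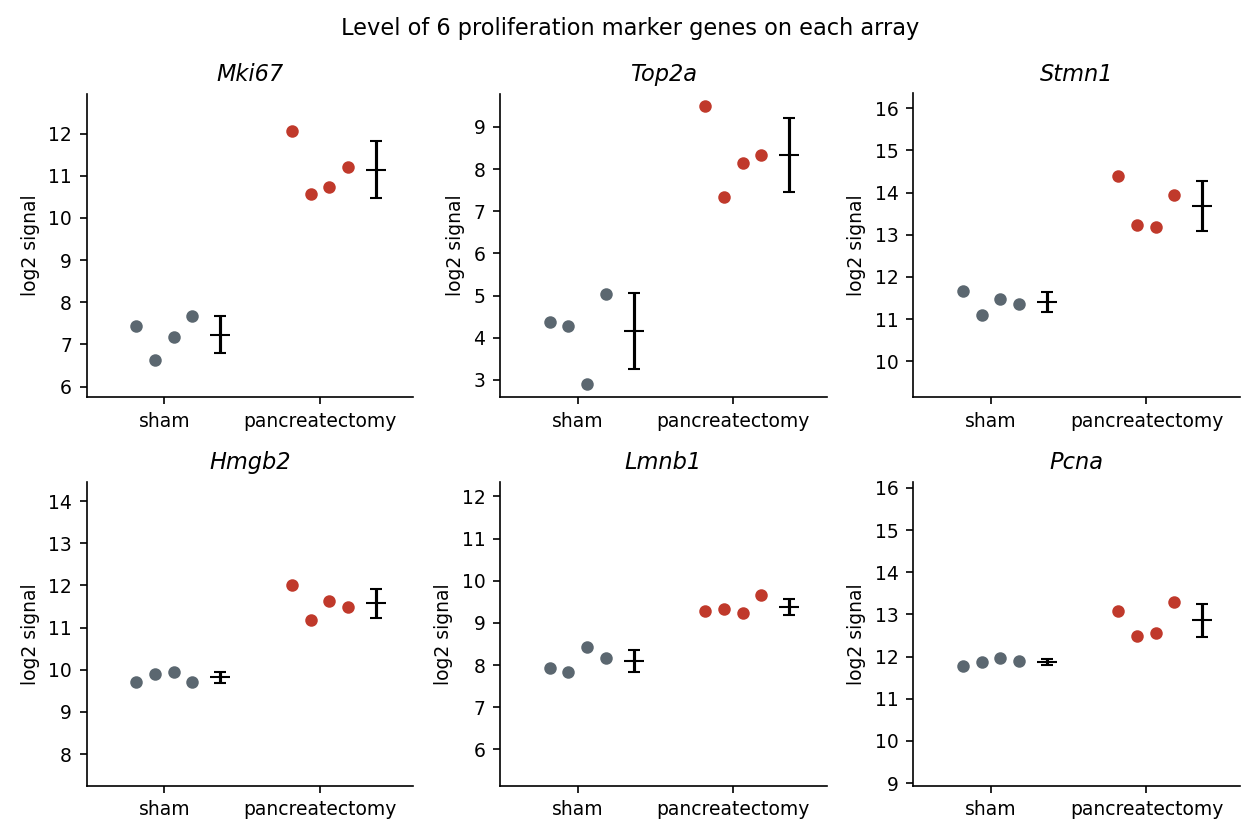
Log2 signal (vertical axes, all of the same span) of the brightest probe of each gene on the 4 sham arrays (grey) and 4 pancreatectomy arrays (red), in the order of replicates 1 to 4, with bars for mean ± SD. In every panel the red points lie above the grey ones, by the widest gap for Mki67 (2.90 between the lowest pancreatectomy and the highest sham array) and by the narrowest for Pcna (0.52).

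In the main setting Top2a and Mki67 had the largest changes of the 6, though with normexp background correction Top2a (2.23) lay below Stmn1 (2.26). Mki67 had levels of 7.43, 6.64, 7.19 and 7.67 on sham arrays and 12.06, 10.56, 10.74 and 11.22 on pancreatectomy arrays. The lowest pancreatectomy array stood 2.90 above the highest sham array. The mean rose from 7.23 ± 0.44 (SD, n = 4) to 11.14 ± 0.67, a change of 3.91 ± 0.35 (SE) or 15.1-fold, with a limma adjusted p of 0.0072. The probe lies at chr7:142881591-142881650 (mm9, minus strand). A further Mki67 probe at chr7:142884764-142884823 had a change of 3.97, and the difference between both probes stayed within 0.44 and 0.67 on all 8 arrays. All 4 sham arrays were well above background for both probes, so the Mki67 baseline was measured.

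Top2a had levels of 4.38, 4.28, 2.90 and 5.04 on sham arrays and 9.48, 7.34, 8.15 and 8.33 on pancreatectomy arrays. Sham signals were near the floor, with processed intensities of 26.7, 24.6, 3.05 and 49.7, and sham replicate 3 was not well above background, so 3 of 4 sham arrays measured the gene. The change was 4.18 ± 0.53, or 18.1-fold (limma adjusted p = 0.0132, n = 4 and 4), from 4.15 ± 0.90 to 8.33 ± 0.88 (SD). The size of the Top2a change differed between settings. With normexp background correction it was 2.23, and without sham replicate 3 it was 3.76. The normexp setting adds an offset of 50 before log2, which by itself shrinks changes of dim probes. How much of the drop to 2.23 comes from that offset was not tested. The Top2a call was lost without sham replicate 2 (4.22) or pancreatectomy replicate 4 (4.18), and also under quantile scaling (4.59) or when arrays were left unscaled (4.18). The probe lies at chr11:98855522-98855581 (mm9, minus strand).

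Stmn1 had levels of 11.66, 11.10, 11.48 and 11.35 on sham arrays and 14.40, 13.22, 13.18 and 13.95 on pancreatectomy arrays. The groups stood 1.52 apart at their nearest arrays. Stmn1 rose by 2.29 ± 0.29, or 4.89-fold (limma adjusted p = 0.0129), from 11.40 ± 0.24 to 13.69 ± 0.59 (SD, n = 4). Its call was lost without sham replicate 2 (2.19) or pancreatectomy replicate 4 (2.20) and with no scaling (2.29). The probe lies at chr4:134029695-134029754 (mm9, plus strand), and a further probe at chr4:134029355-134029414 had 2.26. The 2 probes differed by 2.36 on sham replicate 3, the array with the lowest overall signal, and by 1.51 to 2.03 on the other 7.

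A probe of Gm11223, at chr4:69586229-69586288 (mm9), followed Stmn1 within -0.11 to 0.00 on every array. Gm11223 is a pseudogene in the GRCm38 gene table, and the deposited table describes its transcript as leukemia-associated gene, an older name of stathmin. Whether the Stmn1 probes also detect this copy, or the Gm11223 probe detects Stmn1, was not tested, so both signals are uncertain in that respect.

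Hmgb2 had levels of 9.71, 9.91, 9.95 and 9.71 on sham arrays and 12.02, 11.18, 11.64 and 11.49 on pancreatectomy arrays. The sham arrays lay within 0.25 of each other and 1.23 below the lowest pancreatectomy array. Hmgb2 rose by 1.76 ± 0.19, or 3.39-fold (limma adjusted p = 0.0081), from 9.82 ± 0.13 to 11.58 ± 0.35 (SD, n = 4). It kept its call without any 1 of the 8 arrays, as did Mki67. The probe lies at chr8:59992929-59992988 (mm9, plus strand).

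Lmnb1 had levels of 7.93, 7.84, 8.43 and 8.17 on sham arrays and 9.28, 9.33, 9.23 and 9.65 on pancreatectomy arrays. The nearest arrays of the groups were 0.80 apart. Lmnb1 rose by 1.28 ± 0.18, or 2.43-fold (limma adjusted p = 0.0188), from 8.09 ± 0.26 to 9.37 ± 0.19 (SD, n = 4). Its probe, at chr18:56912871-56912930 (mm9, plus strand), is printed in 10 spots on each array, whose SD within an array was 0.042 to 0.066, below the SD between arrays of a group. The call was lost with normexp (1.05), with no filter on dim probes (1.28), with no scaling (1.28) and when sham replicate 1 (1.23), 2 (1.20) or 4 (1.31) or pancreatectomy replicate 1 (1.31) or 4 (1.19) was left out.

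Pcna had levels of 11.78, 11.87, 11.97 and 11.89 on sham arrays and 13.08, 12.48, 12.57 and 13.29 on pancreatectomy arrays. The sham arrays differed by at most 0.18, while pancreatectomy replicates 1 and 4 stood above replicates 2 and 3. The change was 0.98 ± 0.20, or 1.97-fold, from 11.88 ± 0.08 to 12.86 ± 0.39 (SD, n = 4). It did not pass in limma (adjusted p = 0.101, unadjusted p = 0.00099), although it was positive under each of 21 alternatives and passed with array weights (1.00). The probe maps to chr2:132075022-132075054 (mm9, minus strand) in the deposited table.

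**Figure D2:**
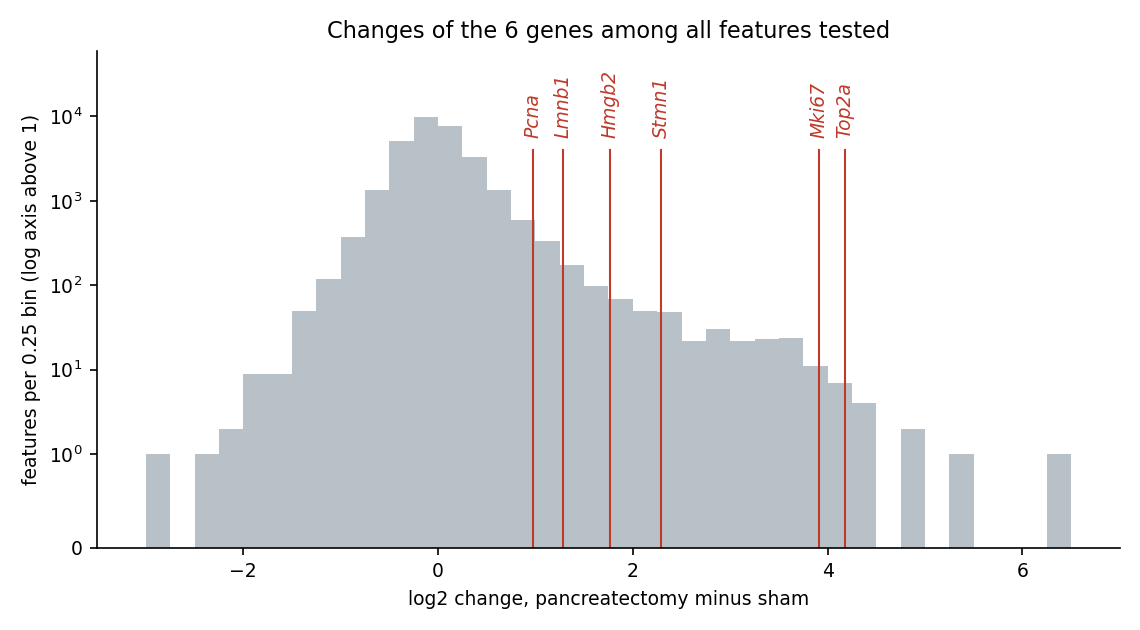
Number of features (vertical axis, logarithmic above 1) by log2 change from sham to pancreatectomy (horizontal axis, bins of 0.25), with a red line at the change of each of the 6 genes. Top2a and Mki67 stand in the far right tail, while Pcna lies at 0.98, with 2.97% of all features above a change of 1.

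By size of change, Top2a ranked 11 and Mki67 ranked 19 among the 30858 features. The sham signal of Top2a was near background, and its part in this rank was not tested. With normexp and its offset of 50, which shrinks changes of dim probes, the change was 2.23 for Top2a and 3.40 for Mki67. Stmn1 ranked 184, Hmgb2 310, Lmnb1 555 and Pcna 953. A change above 1 was seen in 2.97% of all features. The authors' deposited table, which averages each group, gives differences of 4.18 for Top2a, 3.92 for Mki67, 2.30 for Stmn1, 1.77 for Hmgb2, 1.29 for Lmnb1 and 0.98 for Pcna on its own log2 scale.

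The rises were compared as log2 differences between 2 genes within each array, which do not depend on scaling between arrays. Exact two-sided permutation tests over the 8 arrays were run for all 15 pairs, with a smallest possible p of 0.0286, and p-values were adjusted over the 15. In 11 pairs the rises differed (exact p = 0.0286, adjusted p = 0.039). Top2a exceeded Stmn1 by 1.89 ± 0.54 (SE) and Pcna by 3.20 ± 0.59, and Mki67 exceeded Stmn1 by 1.62 ± 0.19 and Pcna by 2.94 ± 0.33. Stmn1 exceeded Lmnb1 by 1.01 ± 0.32, and Hmgb2 exceeded Pcna by 0.78 ± 0.20.

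The other 4 pairs are neighbours in the order of rises. Top2a and Mki67 differed by 0.26 ± 0.45 (exact permutation p = 0.743). Stmn1 exceeded Hmgb2 by 0.53 ± 0.26 and Hmgb2 exceeded Lmnb1 by 0.48 ± 0.25 (both exact p = 0.114, adjusted p = 0.132). Lmnb1 exceeded Pcna by 0.30 ± 0.18 (exact p = 0.171, adjusted p = 0.184). These pairs were not told apart by 4 arrays against 4. With normexp 9 pairs differed, and Top2a then lay 1.17 below Mki67 and 0.03 below Stmn1. The offset of 50 in that setting shrinks changes of dim probes such as that of Top2a. Without pancreatectomy replicate 1, 0 of 15 pairs passed the exact permutation test (lowest adjusted p = 0.0536), with 8 pairs at an unadjusted p of 0.0286.

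**Figure D3:**
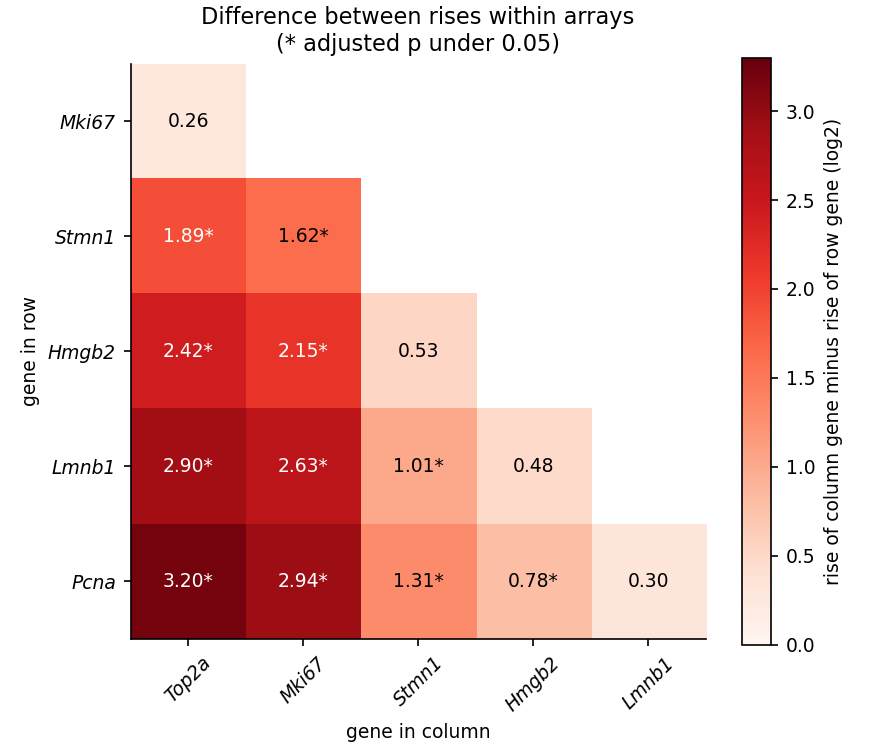
Rise of the gene in the column minus rise of the gene in the row, on the log2 scale, averaged over 4 pancreatectomy against 4 sham arrays, with an asterisk for an adjusted p under 0.05. Differences grow from the diagonal to the lower left corner, where Top2a exceeds Pcna by 3.20, and the 4 cells without an asterisk join neighbours in the order of rises.

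By slide row, each with 2 arrays a group, changes in rows 1 and 2 were 4.28 and 3.55 for Mki67, 4.09 and 4.27 for Top2a and 2.43 and 2.15 for Stmn1. They were 1.79 and 1.73 for Hmgb2, 1.42 and 1.14 for Lmnb1 and 0.95 and 1.00 for Pcna. The order of the other 4 genes was the same in both rows, and Top2a and Mki67 changed places. Array by array, the mean of the 6 genes stood 2.96, 1.93, 2.16 and 2.56 above the sham mean on pancreatectomy replicates 1 to 4 and between -0.15 and 0.21 on sham arrays. Pancreatectomy replicate 1 was highest for Mki67, Top2a, Hmgb2 and Stmn1, and replicate 2 was lowest for Mki67, Top2a, Hmgb2 and Pcna. Lmnb1 varied least among pancreatectomy arrays, over a range of 0.43, against 2.14 for Top2a and 1.49 for Mki67.

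Closely related genes were compared with their relatives among the 6. Top2b, the relative of Top2a, had 12.03 ± 0.09 on sham and 12.05 ± 0.12 on pancreatectomy arrays (SD, n = 4), a change of 0.02 ± 0.13 (SE). The Top2a rise exceeded it by 4.16. Hmgb1, the abundant relative of Hmgb2, had 0.10 ± 0.13, with 8 probes from -0.41 to 0.17, and Hmgb3 had 0.57 ± 0.15. The pancreatectomy arrays of Hmgb3 (9.03 to 9.46) all lay above its sham arrays (8.55 to 8.75), which held for 2.99% of all features. Lmnb2, the other B-type lamin, had -0.05 ± 0.13 and Lmna, the A-type lamin of differentiated cells, 0.45 ± 0.19. Stmn2, Stmn3 and Stmn4, stathmins best known from neurons, had 0.39 ± 0.19, 0.09 ± 0.24 and -0.15 ± 0.29.

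None of these 8 relatives passed in limma, with adjusted p from 0.200 for Hmgb3 to 0.969 for Top2b. With 0.544% of all features called higher, 0 of 8 is near the background and sets them apart from no other genes. The test of the difference itself, chosen after the values were seen, gave an exact permutation p of 0.0286 (adjusted over 8, 0.0327) for 7 of the 8. For Lmnb1 against Lmna the difference was 0.83, with an exact permutation p of 0.0571, which did not pass.

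**Figure D4:**
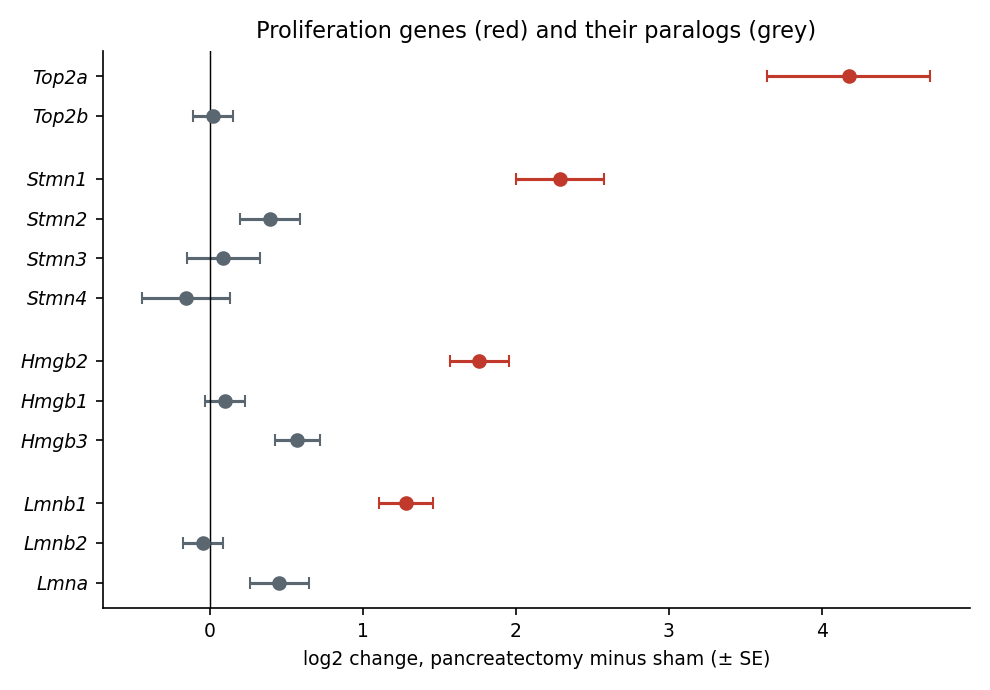
Log2 change from sham to pancreatectomy with its SE (horizontal axis) for Top2a, Stmn1, Hmgb2 and Lmnb1 (red) and their relatives (grey), 4 arrays against 4. The grey points lie between -0.15 and 0.57, and the red points between 1.28 and 4.18.

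Genes that work with the 6 were counted by lists, with calls by limma over all features, of which 0.544% were called higher and 0.0843% lower. Of 26 genes that load Pcna on DNA or bind it, all measured, 8 rose, 0 fell and 18 did not pass, with a median of 0.61. Dtl, a ubiquitin ligase adaptor that acts through Pcna, rose by 4.23 ± 0.47 (SE), Pole, the catalytic subunit of DNA polymerase epsilon, by 3.47 ± 0.39 and Cdt1, an origin licensing factor, by 2.41 ± 0.25. The further Pole probe had 1.55, and Dtl was well above background on 2 of 4 sham arrays. The difference between Pcna and its partners was not tested.

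Of 5 measured Ki-67 partners 0 passed (0 in limma at an adjusted p of 0.05), with changes from -0.12 to 0.05, and Kif15 was left out as dim. Cdca2, which targets a phosphatase to chromosomes, had a change of -0.12 on the brighter of its 2 probes and of 2.61 on the dimmer one. It is named because its probes were seen to disagree, as are 3 genes of the other lists whose brightest probe did not pass. Tpx2, a spindle assembly factor, had -0.23 on its brightest probe and 3.79 on another. Mybl2, a transcription factor of dividing cells, had 0.59 and 1.83, and Chaf1b, a chromatin assembly subunit, had 0.17 and up to 1.64. Of 6 topoisomerases only Top2a passed, of 9 HMG proteins only Hmgb2 and of 17 nuclear lamina genes only Lmnb1. With 0.544% of all features called higher, 0 calls among the others is near the background, as is 0 of 5 Ki-67 partners. In each of these 3 lists 2 genes, with Top2a, Hmgb2 or Lmnb1 itself counted, had every pancreatectomy array above every sham array. This held for 2.99% of all features. It also held for 15 of the 26 genes that load or bind Pcna and for 0 of 5 Ki-67 partners. Among stathmins and tubulins it held for 8 of 18, with Stmn1 counted, and among other genes of cycling cells for 29 of 32. The medians of the other members of these lists were 0.02, 0.10 and -0.02. Of 18 stathmin and tubulin genes, Stmn1 and Tuba1c, an alpha tubulin, rose, Tuba1c by 1.41 ± 0.25, and 16 of 18 changes were positive, with a median of 0.39 without Stmn1. Of 35 other genes of cycling cells 32 were measured, of which 22 rose and 0 fell, with a median of 2.55. Cdk1, the mitotic kinase, rose by 4.43 ± 0.73, although 1 of its 3 probes had -0.26. Bub1, a spindle checkpoint kinase, rose by 4.29 ± 0.44, with 2 of 4 sham arrays well above background, and Birc5, which encodes survivin, by 3.98 ± 0.39.

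For each of the 6, the 3 named genes with the nearest pattern were taken by the root mean square (RMS) difference over the 8 arrays after each gene was centred on its own sham mean. Nearest to Mki67 were Nusap1, a spindle microtubule protein (0.13), Melk, a mitotic kinase (0.17), and Birc5 (0.21). Top2a had no gene as near, with Fanca of the Fanconi anaemia complex at 0.40, Birc5 at 0.46 and Plk1, a mitotic kinase, at 0.46. Pcna was followed by Pidd1 (0.09), Gmnn, which encodes the licensing inhibitor geminin (0.12), and Rpa2, a subunit of the single-strand DNA binding complex (0.12).

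Nearest to Hmgb2 were Dsn1, a kinetochore gene (0.23), Prr11 (0.23) and Hrob (0.25). Lmnb1 was nearest to the histone gene H2ac11 (0.20), the replicative helicase subunit Mcm6 (0.20) and Rpa2 (0.22). Stmn1 was nearest to Gm11223 (0.04), Nsl1, a kinetochore gene (0.18), and Cenpp, a centromere gene (0.19). The Gm11223 probe may detect the same transcript as the Stmn1 probe, which was not tested. Within an RMS difference of 0.5 lay 5 features for Top2a, 30 for Mki67, 48 for Stmn1, 71 for Hmgb2, 160 for Lmnb1 and 567 for Pcna. The counts were larger for genes with smaller changes. Top2a and Mki67 had 5 and 30 at changes of 4.18 and 3.91 and sham SDs of 0.90 and 0.44. What sets the counts was not tested.

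Markers of other cell types differed between arrays, and their part in the changes was not tested. Of 15 marker lists, 0 of the measured markers passed in either direction in limma at an adjusted p of 0.05, which is near the background of 0.544% higher and 0.0843% lower. Several lists nevertheless stood far from sham on single arrays. The beta-cell list, with 7 of 7 markers above background on all arrays, had a mean between -0.23 and 0.41 on sham and between -0.60 and -0.09 on pancreatectomy arrays, relative to sham. The alpha-cell list (3 of 3, all above background on all arrays) stood at -1.21, -0.70, -0.47 and -0.72 on pancreatectomy replicates 1 to 4 and between -0.22 and 0.26 on sham arrays. Every pancreatectomy array thus lay below every sham array, and the lowest was replicate 1, where Mki67 and Top2a were highest. Its part in the changes was not tested. Macrophage markers (6 of 6 measured) stood at 2.43 and 1.93 and fibroblast markers (7 of 7) at 3.02 and 2.39 on pancreatectomy replicates 1 and 3. On replicates 2 and 4 they stood at -0.36 and 0.07 and at -0.01 and -0.06, within or below the sham range, and there the mean of the 6 genes was 1.93 and 2.56. Without replicates 1 and 3 the changes were 3.66 for Mki67, 3.69 for Top2a, 2.19 for Stmn1, 1.52 for Hmgb2, 1.40 for Lmnb1 and 1.01 for Pcna. Limma then called 1 of the 6, Mki67, with 6 at an unadjusted p under 0.05. These arrays were left out after the values were seen, and the remaining ones differ in other markers, as given below.

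Hepatocyte markers (6 of 6) stood at 6.65 on sham replicate 4 and at 6.73 and 5.55 on pancreatectomy replicates 1 and 4, and below 0 on the other 5 arrays. The mean of the 6 genes on sham replicate 4 was 0.21, the highest of the sham arrays (0.05, -0.15 and -0.11 on replicates 1 to 3). Top2a (0.89) and Mki67 (0.44) were highest there among sham arrays, while Hmgb2 (-0.11) and Stmn1 (-0.04) lay below their sham mean. On pancreatectomy replicates 1 and 4 the mean was 2.96 and 2.56, against 1.93 and 2.16 on replicates 2 and 3. The part of liver transcripts in these values was not tested. B-cell and plasma cell markers (5 of 6 measured) stood at 6.04, T-cell markers (3 of 5) at 2.74 and gut markers (5 of 6) at 2.40 on pancreatectomy replicate 3. Neutrophil markers (4 of 4) ranged from -0.52 to 0.69 on sham and from 0.11 to 2.76 on pancreatectomy arrays, and erythroid markers (3 measured) from -0.57 to 0.43 and from 0.41 to 1.21. Above background on all 8 arrays were 0 of 4 neutrophil, 1 of 5 B-cell and plasma cell and 2 of 6 hepatocyte markers. For T-cell, gut and erythroid markers it was 2 of 3, 3 of 5 and 2 of 3. The size of differences in dim markers is thus uncertain. On pancreatectomy replicate 2 the liver, gut, B-cell, macrophage and fibroblast lists were not above the sham range, while the erythroid list was the highest of the 8 arrays (1.21, sham up to 0.43) and the Schwann cell list was above sham (0.39, sham up to 0.15). On that array the 6 genes stood 3.33 (Mki67), 3.20 (Top2a), 1.83 (Stmn1), 1.36 (Hmgb2), 1.24 (Lmnb1) and 0.60 (Pcna) above the sham mean.

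**Figure D5:**
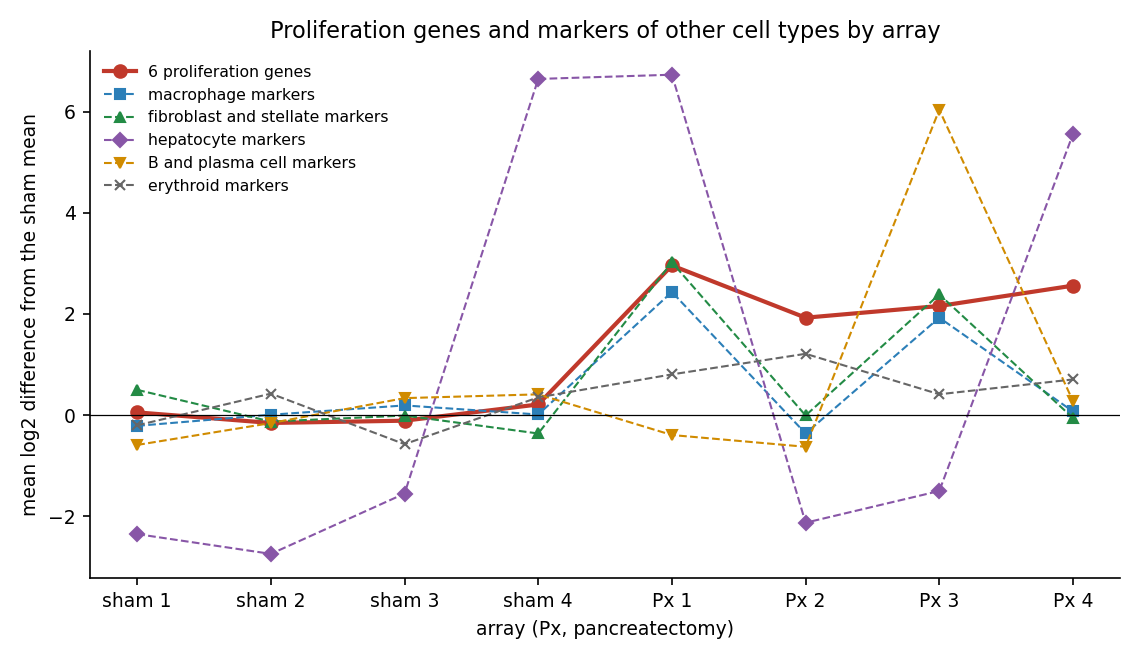
Mean log2 difference from the sham mean (vertical axis) on each of the 8 arrays (horizontal axis; Px, pancreatectomy) for the 6 proliferation genes (red line) and for markers of 5 other cell types (dashed lines). The red line stands at 1.93 to 2.96 on all 4 pancreatectomy arrays, while macrophage and fibroblast markers are high on replicates 1 and 3 and hepatocyte markers on sham replicate 4 and pancreatectomy replicates 1 and 4.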

How the data were processed

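The data are one-colour arrays of islet RNA, 4 sham and 4 pancreatectomy. Spot intensity, linear, was taken from the deposited scanner output. The file headers name Feature Extraction 10.7.3.1, but 9.1 is the version in the submitters' processing notes. The authors' deposited table gives group averages of raw intensity and of a log2 value after a 75th percentile shift in GeneSpring GX 12.5, per the file headers. It supplied names and mm9 positions. It has no value per array, so it was not tested.

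Control and outlier spots were left out (113 to 228 outliers per array). No spot was saturated. Log2 processed signal was shifted to a common 75th percentile, which was 178 on the dimmest array and 655 on the brightest. Replicate spots were averaged per probe. The filter kept probes well above background on at least 4 arrays, with at least 3 values per group. A gene is its brightest kept probe. Symbols were updated by Entrez ID through a GRCm38 table (30994 of 33325 probes with a symbol matched). The comparison used limma 3.58.1 (R 4.3.3) with Benjamini-Hochberg adjustment over 30858 features (median SE 0.22), a step tested on simulated data. The number of arrays limits the precision. Alternatives covered scaling, background, filter, probes, variance model, slide row and arrays left out. The normexp alternative used an offset of 50 and the median spot signal, in place of the planned mean signal. Genes named are the 6, their relatives, up to 3 called genes per list and direction, and the 3 nearest patterns. The genes and lists were chosen with earlier results of these data known.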

Additional observations from a re-analysis of the deposited data

How the results depend on the processing

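Under 21 alternatives (20 for Top2a, which the filter for signal above background on all 8 arrays left out), all changes of the 6 genes stayed positive. Limma called 5 of the 6, and from 4 to 6 with median or quantile scaling, normexp, either other filter, the mean of probes, single probes, an intensity trend, array weights or the slide row as a block. Leaving out 1 array gave 2 to 5 called genes and changes of 3.61 to 4.11 for Mki67, 3.76 to 4.51 for Top2a, 2.05 to 2.46 for Stmn1, 1.62 to 1.90 for Hmgb2, 1.19 to 1.39 for Lmnb1 and 0.83 to 1.10 for Pcna, and 0 to 10 unequal pairs where the full set gave 11. With no scaling 1 gene was called, and Top2a (4.18), Stmn1 (2.29), Hmgb2 (1.76) and Lmnb1 (1.28) were not. With quantile scaling Top2a (4.59) was lost, with normexp Lmnb1 (1.05) and with no filter Lmnb1 (1.28). With array weights Pcna (1.00) was gained. Without pancreatectomy replicates 1 and 3, an alternative chosen after seeing the data, 1 gene was called, and Top2a (3.69), Stmn1 (2.19), Hmgb2 (1.52) and Lmnb1 (1.40) were lost. Without the 4 arrays with liver, gut or B-cell transcripts, 3 sham arrays against 1, limma called 0 of the 6, with 5 at an unadjusted p under 0.05. The lone pancreatectomy array is there assumed to vary like the sham arrays, and the changes were 3.48 (Mki67), 3.49 (Top2a), 1.81 (Stmn1), 1.33 (Hmgb2), 1.26 (Lmnb1) and 0.61 (Pcna, the gene not under that p). These 2 alternatives test fewer arrays, and the cause of the other losses was not tested. Median scaling moved the median of all features from -0.04 to -0.16 and the 6 changes to between 0.86 and 4.05. It turned the split of calls over all features from 168 higher and 26 lower to 130 and 48, and array weights turned it to 387 and 323. No paired analysis was possible because the labels pair no arrays, and the replicate numbers used here follow slide position only. The slide row as a block changed no call of the 6, and unequal pairs within 1 slide row have values but no test. Signal near background limits the sham level of Top2a.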
